A study of Triticum aestivum with 24 samples.

Results

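In wheat leaves, 35 of 107891 genes were higher under drought than with full watering in the wild type and lower under drought in each of 3 TOR transgenic lines. They were chosen from the group means. The change of a gene was taken as log2((drought mean + 1) / (well-watered mean + 1)), and a gene was kept if this was at least 1 (2-fold higher) in WT and at most -1 (2-fold lower) in each of UBQ, DREM and DEH2, with a mean of at least 50 normalized counts in at least 1 group. Parts of chromosomes 1B, 2A and 6B were left out of the rule, because expression there went against the genotype labels in some groups. The rule allows up to 300 genes, so its limit was not reached. Among the 45384 genes that it could have kept, 6159 were at least 2-fold higher in WT and 5718 were at least 2-fold lower in each of the 3 lines. The mirror rule, lower in WT and higher in each line, kept 179 genes. The drought changes of the 35 genes are therefore a description of how they were chosen, and their size and direction are not results of a test.

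The plants were bread wheat (Triticum aestivum), a hexaploid whose subgenomes A, B and D carry similar copies of most genes. The groups are UBQ, DREM and DEH2, which carry a wheat TOR transgene (TaTOR) under the promoters of those names, and WT, the untransformed spring line Fielder in which the lines were made. Each genotype label has 3 libraries of leaves from plants whose water was withheld and 3 from plants kept well-watered, which makes 24 libraries. The labels describe drought as water withheld for 12 days from 4-week-old plants grown at 80% field capacity, and give neither the day of leaf sampling nor whether replicates were separate plants or how many transformation events stand behind a line. The p-values below thus measure the spread between these libraries, which may be technical.

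The kinase TOR, named after the drug rapamycin that inhibits it, is found across eukaryotes and promotes translation, ribosome production and growth when nutrients and energy are plentiful. In plants under water shortage abscisic acid signalling restrains TOR, growth slows, and transcripts for photosynthesis usually decline while those for stress protection accumulate. A constitutive promoter such as a ubiquitin promoter is commonly used to express a transgene in most tissues, and the labels do not describe the other promoters. The table of 155467 gene names used here matched 0 of the 107891 identifiers, so the 35 genes are given by identifier, no function is assigned to them, and leaf markers and the TOR transcript could not be looked up. No gene sequence was available for them either. In leaf RNA of many cell types, fewer cells of a type and less RNA per cell cannot be told apart.

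The library sums ran from 32500000 to 54400000 normalized counts, and the value of 1 read put the depth at about 33700000 to 55300000 reads. At this depth 3 reads are worth 1.95 to 4.63 normalized counts, a floor that covers counting error only. Some groups went against their labels. The 2A region was lower in UBQ well-watered (median log2 deviation -0.77 from the 4 groups of the regime) and in WT drought (-0.71), and was near 0 in UBQ drought (0.06) and WT well-watered (0.04). The start of 1B was almost silent in DREM drought (-4.88) and DEH2 well-watered (-4.97), and the start of 6B in UBQ drought (-4.03). Each drought change of the 35 genes rests on at least 1 of these groups, so drought and a difference between the plants of 2 groups cannot be told apart, and no genotype could be described without such a group. One library also stood apart. In WT drought replicate 1, 224 genes were at 50 or more and at least 4-fold above both sister libraries, and these genes made up 22.3% of its sum, where they made up 0.848% and 0.654% of the sums of replicates 2 and 3.

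Over the 35 genes the median change was -2.14 in UBQ, -2.17 in DREM, -2.41 in DEH2 and 1.48 in WT, on the log2 scale of group means. Over all genes that the rule could have kept these medians were 0.01, 0.03, 0.01 and 0.03. The changes ran from -6.74 to -1.06 in UBQ, from -5.94 to -1.04 in DREM, from -4.78 to -1.09 in DEH2 and from 1.00 to 5.40 in WT. The median gene stood at 33.9, 25.6 and 19.9 normalized counts in the 3 libraries of UBQ drought, at 16.8, 18.0 and 16.9 in DREM drought and at 21.8, 13.4 and 16.2 in DEH2 drought. It stood at 332.1, 132.9 and 135.8 in WT drought and at 60.3, 72.8 and 60.7 in WT well-watered. In the well-watered lines it lay between 79.5 and 140.2. WT drought held the highest group mean for 20 of the 35 genes, UBQ well-watered for 9, DREM well-watered for 5 and DEH2 well-watered for 1. The lowest mean was found in a drought group of the lines for 33 of them (UBQ 12, DREM 12, DEH2 8, and 1 tied at 0 in DREM and DEH2) and in WT well-watered for 2.

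**Figure D1:**
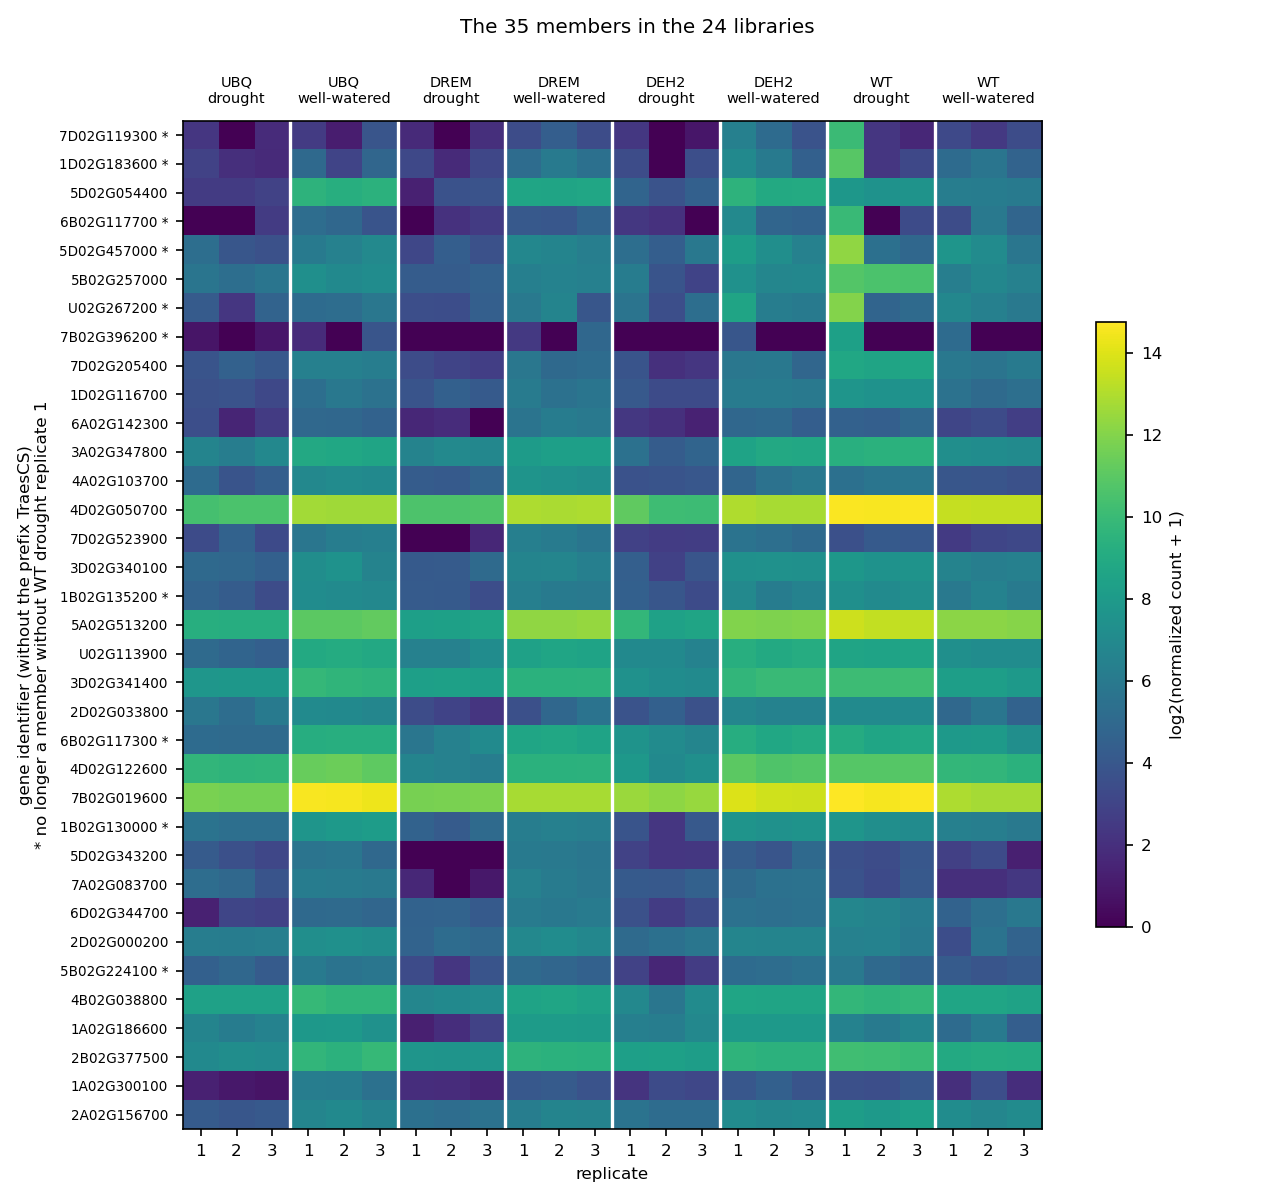
Log2(normalized count + 1) of the 35 genes (down the page) in the 24 libraries (across, replicates 1 to 3 of each group), with colour from dark (0) to yellow (high). The drought groups of the 3 lines are the darkest columns for most genes, and in 6 rows near the top WT drought is bright in replicate 1 only. An asterisk marks the 10 genes that the rule does not keep without that library.

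Of the 2 members with the largest normalized count in WT drought, TraesCS4D02G050700 had nearly the same change in all 3 lines. It had 1347, 1532 and 1502 normalized counts in UBQ drought, against 6589, 6509 and 6319 in UBQ well-watered. DREM drought libraries had 1577, 1571 and 1658, against 7865, 7505 and 7771 in DREM well-watered. In DEH2 drought it had 2297, 1157 and 1106, against 8044, 7142 and 7364 in DEH2 well-watered, so replicate 1 was the highest of its group. WT drought libraries had 26169, 25387 and 26112, against 11384, 10836 and 10632 in WT well-watered. The drought and well-watered libraries did not overlap in any genotype. Its changes were -2.15 in UBQ, -2.27 in DREM, -2.31 in DEH2 and 1.24 in WT. Under drought no difference between the lines passed the test, with log2 differences of 0.14 ± 0.18 (SE) for DREM minus UBQ, -0.03 ± 0.18 for DEH2 minus UBQ and 0.16 ± 0.18 for DREM minus DEH2 (limma adjusted p = 0.578, 0.931 and 0.506).

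TraesCS7B02G019600 differed more between the lines. It had 3544, 3195 and 3192 normalized counts in UBQ drought, against 25184, 24349.8 and 21401 in UBQ well-watered. It had 3332, 3556 and 3692 in DREM drought, against 7169, 7359.8 and 7229.7 in DREM well-watered. DEH2 drought libraries had 5968, 4799 and 5718, against 16407, 13424 and 12752 in DEH2 well-watered. In WT it had 27595, 24337 and 25539.8 under drought and 7882, 7075 and 7015 with water. UBQ well-watered replicates 1 and 2 lay within the range of WT drought and replicate 3 below it, while the DREM well-watered libraries lay in the range of WT well-watered. The change was -2.84 in UBQ, -1.04 in DREM and -1.37 in DEH2. Under drought the gene was higher in DEH2 than in UBQ by 0.73 ± 0.09 (SE; limma adjusted p = 2.34e-07).

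TraesCS5B02G257000 and TraesCS5D02G054400, singled out after their values were seen, differ in which of their changes was wider. For TraesCS5B02G257000 the rise in WT was the wider change: WT drought libraries had 1770.5, 1497 and 1486, against 78.8, 111 and 87.5 in WT well-watered, a change of 4.08. Its changes in the lines were -1.55 in UBQ, -2.05 in DREM and -2.08 in DEH2, where replicate 1 of DEH2 drought had 71.3 and its sisters had 13.4 and 6.77. For TraesCS5D02G054400 the fall in the lines was the wider change. It had 4.88, 4.97 and 6.54 in UBQ drought, against 756, 613 and 704 in UBQ well-watered. In DREM it had 1.54, 12.4 and 12.6 under drought and 401, 387 and 426 with water, and in DEH2 it had 25.8, 12.8 and 21.8 under drought and 729, 493 and 524 with water. Its WT drought libraries had 222, 185 and 187, against 74.7, 72.8 and 62.8 in WT well-watered. The well-watered UBQ libraries of TraesCS5D02G054400 were all above the WT drought libraries.

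Of the genes not described in other paragraphs, TraesCS7D02G205400 had the largest WT change, 2.82. It had 13.0, 22.7 and 15.7 normalized counts in UBQ drought, against 83.9, 85.2 and 76.7 in UBQ well-watered, and 434, 391 and 412 in WT drought, against 58.3, 50.2 and 63.8 in WT well-watered. TraesCS1D02G116700 had a WT change of 2.21 and line changes from -2.41 to -1.62. TraesCS3D02G341400 had 176, 146 and 129.7 in DEH2 drought, against 821, 1033 and 1019.8 in DEH2 well-watered, the widest change of the 3 lines at -2.66. Its WT drought libraries had 1088, 1098 and 1163, against 312, 310.3 and 245 in WT well-watered. TraesCS2B02G377500 had its widest change in UBQ, with -2.58 in UBQ, -1.79 in DREM and -1.21 in DEH2. TraesCS4B02G038800 and TraesCS2D02G000200 were both among the genes with smaller changes in UBQ, at -1.29 and -1.06. TraesCS3D02G340100 changed by -3.55 in DEH2 and by -2.32 in UBQ. TraesCS6A02G142300 had 2.11, 2.68 and 0 in DREM drought, against 50.6, 71.8 and 62.5 in DREM well-watered, a change of -4.59. These genes were picked for mention after their values were seen.

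**Figure D2:**
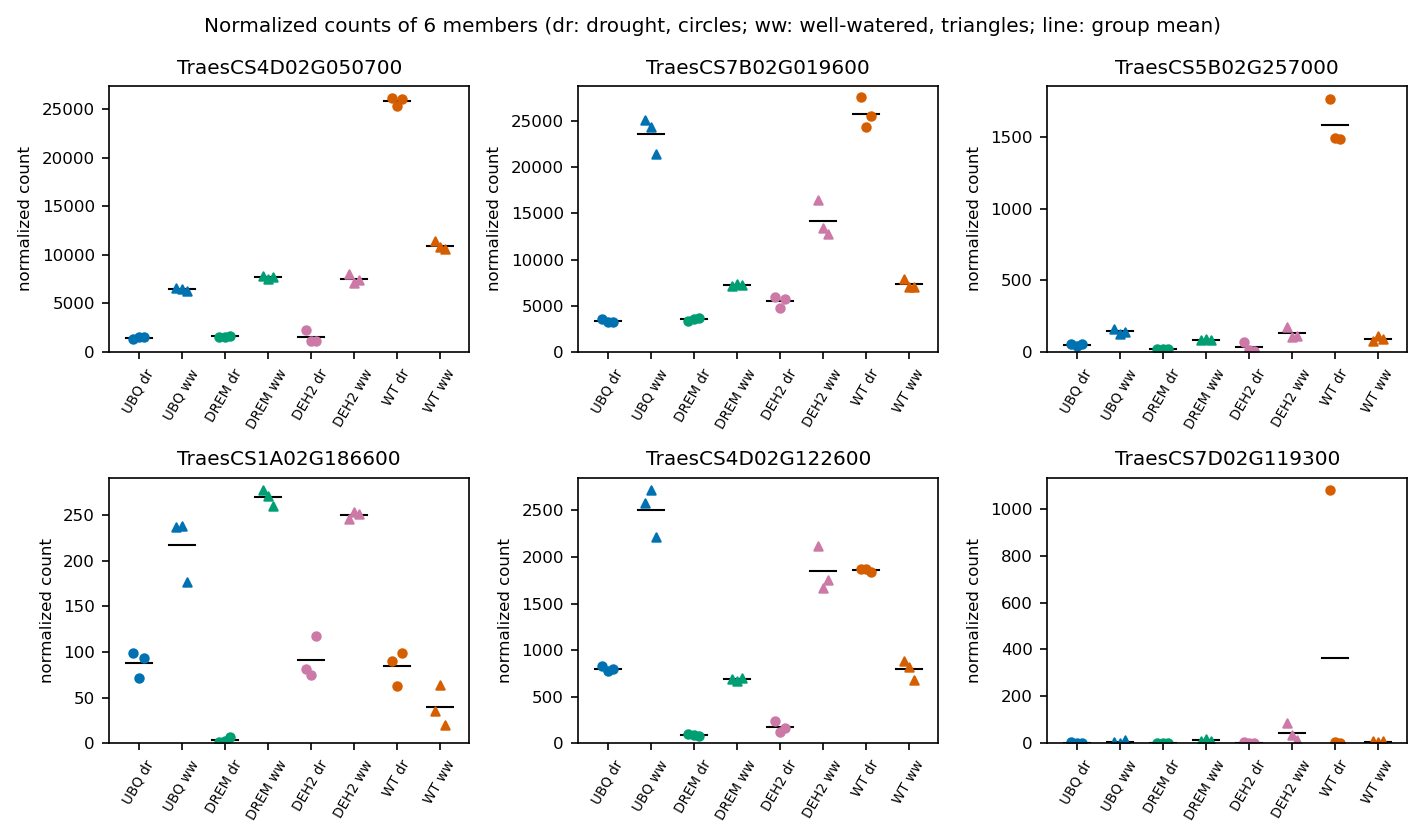
Normalized counts of 6 of the 35 genes in every library, by group, with circles for drought, triangles for well-watered and a line at the group mean. WT drought is the highest group for TraesCS4D02G050700, TraesCS7B02G019600 and TraesCS5B02G257000, DREM drought is the lowest for TraesCS1A02G186600 and TraesCS4D02G122600, and for TraesCS7D02G119300 the mean of WT drought rests on 1 library.

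**Figure D3:**
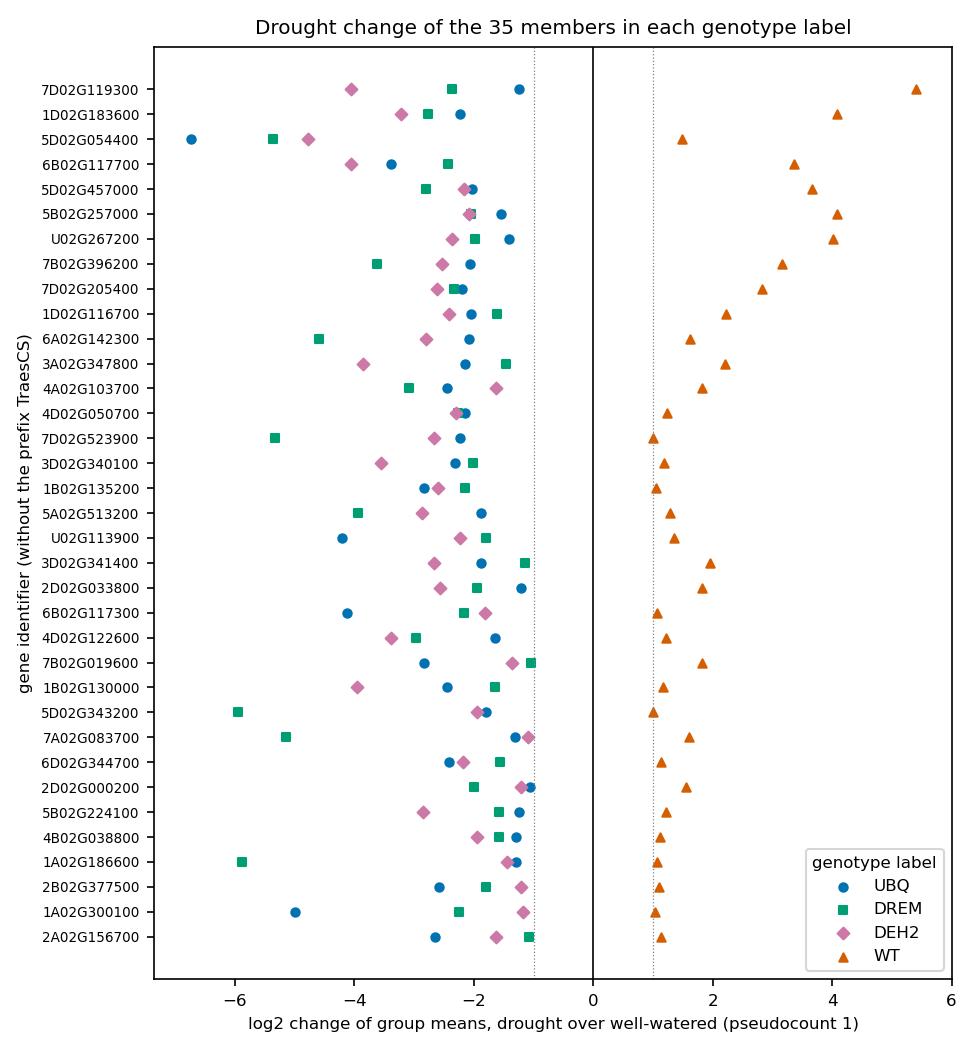
Log2 change of group means, drought over well-watered, of each of the 35 genes in UBQ, DREM, DEH2 and WT, sorted by the WT change minus the highest line change. The dotted lines mark the thresholds of -1 and 1 that chose the genes, so the empty band between them is set by the rule.

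For 6 of the 35 genes the rise in WT rested on WT drought replicate 1. TraesCS7D02G119300, the member with the largest WT change minus highest line change, had 1079 normalized counts in that library and 4.00 and 2.09 in its sisters, against 8.61, 4.45 and 9.73 in WT well-watered. Its WT change was 5.40 with this library and -1.09 without it. TraesCS1D02G183600, second by the same measure, had 1911 in replicate 1 and 3.96 and 8.24 in the sisters, against 34.0, 51.4 and 24.8 in WT well-watered. Its change was 4.09 with the library and -2.41 without it, so the sisters alone had less than the well-watered leaves. The other four, named after their values were seen, moved alike. TraesCS5D02G457000 had 4992 in replicate 1 and 41.7 and 29.4 in the sisters, and TraesCSU02G267200 had 4217 in replicate 1 and 25.5 and 32.7 in the sisters. TraesCS6B02G117700 had 1040.2 in replicate 1 and 0 and 9.33 in the sisters, and TraesCS7B02G396200 had 332.1 in replicate 1 and 0 in each sister. All 6 were among the 224 genes that set this library apart. All 6 were also highest in replicate 1 within DEH2 well-watered. TraesCSU02G267200 had 391.4 there and 73.9 and 64.6 in the sisters, TraesCS6B02G117700 had 121.2 and then 26.7 and 23.6, and TraesCS7D02G119300 had 85.5 and then 34.1 and 12.8. TraesCS1D02G183600 had 127.8 and then 66.0 and 21.8, TraesCS5D02G457000 had 300.03 and then 157.3 and 88.7, and TraesCS7B02G396200 had 14.4 and then 0 in each sister. Of the 224 genes, 128 were at least 2-fold above both sisters in that DEH2 library. What produced the high values in these libraries was not tested.

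**Figure D4:**
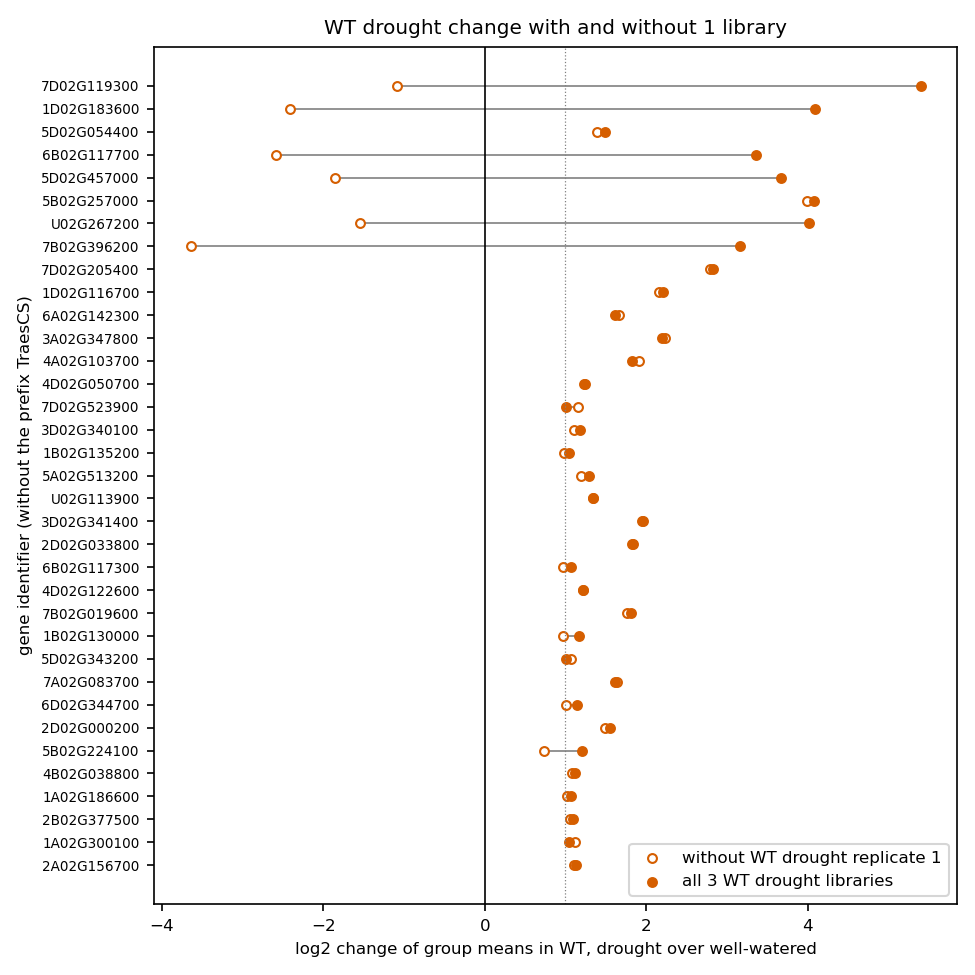
Log2 drought change of the 35 genes in WT with all 3 drought libraries (filled) and without WT drought replicate 1 (open), joined by a line. For 6 genes the open symbol lies below 0, and for the others it lies above 0, from 0.73 for TraesCS5B02G224100 upward.

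A further 4 genes, TraesCS1B02G135200, TraesCS6B02G117300, TraesCS1B02G130000 and TraesCS5B02G224100, were under the threshold of 1 without this library, at 0.98, 0.96, 0.97 and 0.73. The remaining 25 genes met the rule with and without it, although for TraesCS1A02G186600 the WT drought and WT well-watered libraries overlapped. Over these 25 the median change was -2.14 in UBQ, -2.05 in DREM, -2.24 in DEH2 and 1.34 in WT. Their median was 222.1, 185.2 and 193.9 normalized counts in the libraries of WT drought and 74.7, 72.8 and 63.8 in those of WT well-watered. It lay between 18.4 and 37.0 in the drought libraries of the lines and between 113.0 and 169.5 in their well-watered libraries. These 4 ranges did not overlap, but the means of these groups chose the genes, so their separation is a description. Closest to the threshold inside was TraesCS7D02G523900, with a WT change of 1.00 and means of 14.5 in WT drought and 6.72 in WT well-watered. Closest outside were TraesCS7D02G174300, with a WT change of 0.999, and TraesCS1A02G115300, with a DEH2 change of -0.997.

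The limma model of all 60088 genes that reached 10 normalized counts in at least 3 libraries put each gene's difference beside the spread between libraries. All 35 genes passed that filter. Its calls for the drought contrasts use the means that chose the genes, so nothing is read from them except which genes varied too much between libraries to be called. At an adjusted p under 0.05, drought was lower than well-watered for 29 of the 35 genes in UBQ (35.6% of all genes), for 29 in DREM (33.7%) and for 31 in DEH2 (34.5%), and higher for 29 in WT (30.2%). The 6 genes not called in WT were those that rest on replicate 1, with adjusted p from 0.39 to 0.898, and the 25 genes that do not depend on it were called in all 4 contrasts.

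Between genotypes the same means place the genes on both sides of WT. Under drought UBQ was lower than WT for 25 of the 35 genes (30.3% of all genes), DREM for 31 (30.3%) and DEH2 for 26 (29.7%). Among the calls TraesCS7A02G083700 was the exception in direction, higher in UBQ than in WT by 0.97 ± 0.39 (SE; limma adjusted p = 0.0307). It had 37.0, 30.3 and 13.2 normalized counts in UBQ drought, against 12.0, 8.92 and 16.4 in WT drought, and its groups overlapped. In well-watered leaves UBQ was higher than WT for 21 genes (15.2%), DREM for 14 (9.66%) and DEH2 for 21 (8.98%). A gene that is low in well-watered WT meets the rule more easily, and the group means behind these counts chose the genes. The exceptions, named because they are few and after their values were seen, were 3 genes that were lower than WT in a well-watered line. TraesCS4D02G050700 was lower in UBQ and DEH2, TraesCS5A02G513200 was lower in UBQ, and TraesCS2A02G156700 was lower in DREM. In DREM, TraesCS4D02G050700 lay at the threshold, lower by -0.51 ± 0.18 (SE; limma adjusted p = 0.05), and its libraries did not overlap those of WT. TraesCS5A02G513200 had 2075, 2073 and 2387 in UBQ well-watered, against 4747, 4699 and 4246 in WT well-watered.

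WT drought, the group in which the genes are raised, was also set beside the well-watered lines. The median log2 difference of WT drought minus UBQ well-watered was 0.18 over the 35 genes, and 15 of them were within 2-fold. The difference was 0.59 from DEH2 well-watered, with 17 genes within 2-fold, and 1.10 from DREM well-watered, with 8 genes. As shares of the 35 genes, 42.9%, 48.6% and 22.9% were within 2-fold of UBQ, DEH2 and DREM well-watered. Of all genes that the rule could have kept, 73.2%, 72.9% and 74.9% were, so the 35 genes were less often alike. The means compared here entered the rule, so these values are a description. For the 25 genes that do not depend on replicate 1 the differences were 0.11 for UBQ, 0.22 for DEH2 and 0.67 for DREM. UBQ well-watered and WT drought are also the groups that share the lower 2A region, and the part of this in the result was not tested.

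The rule treats the 3 lines alike, so how they differ from one another is not set by it, although their means entered it. Under drought DREM was lower than UBQ for 13 of the 35 genes (22.8% of all genes) and higher for 6 (20.0%). DEH2 was lower than UBQ for 12 (20.2%) and higher for 7 (20.0%). DREM was lower than DEH2 for 11 (22.1%) and higher for 5 (20.5%). In all, 24 of the 35 genes were called in at least 1 of these 3 comparisons and 8 in all 3. The matching shares of all genes are not given here, so nothing particular to the 35 genes is read from this. As shares of the 35 genes, the lower counts were 37.1%, 34.3% and 31.4%, each above the share of all genes, and the higher counts were 17.1%, 20.0% and 14.3%, at or below it. These shares rest on few genes and their distance from the shares of all genes was not tested. All tested genes also include genes that the rule could not keep. Which count is the lower one depends on the line named first. Over the 25 genes that do not depend on WT drought replicate 1 the lower and higher counts were 11 and 5 for DREM against UBQ, 10 and 6 for DEH2 against UBQ, and 10 and 4 for DREM against DEH2.

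**Figure D5:**
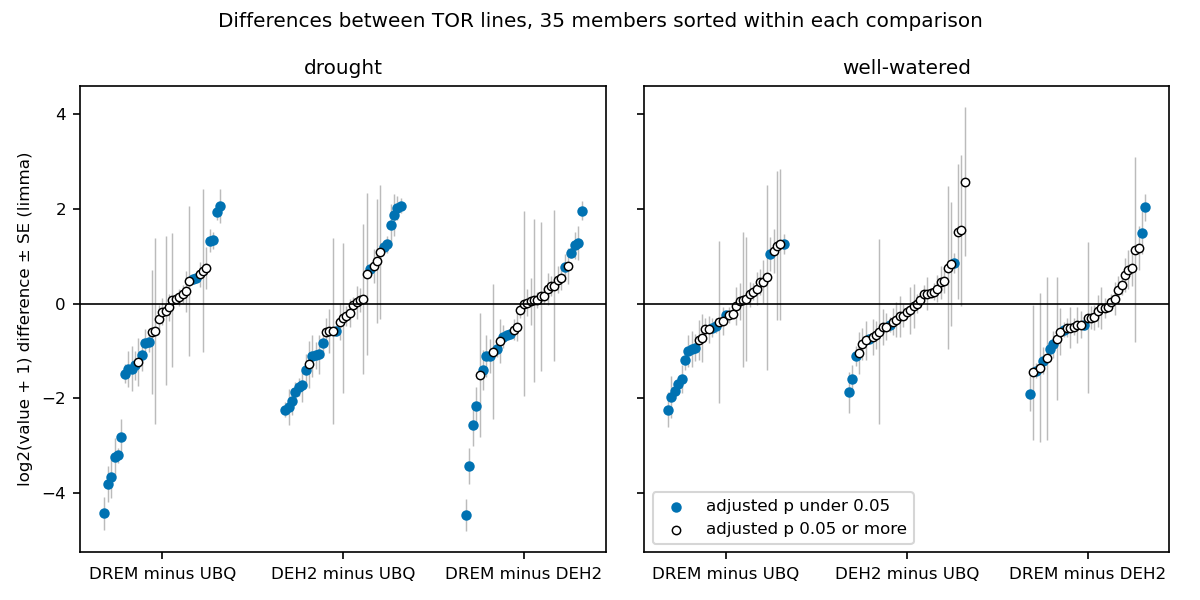
Log2(value + 1) differences ± SE between pairs of TOR lines for the 35 genes, sorted within each comparison, under drought (left) and well-watered (right), with filled points at a limma adjusted p under 0.05. The widest called differences are genes lower in DREM under drought, down to -4.46, and the longest error bars belong to genes that vary between libraries of a group.

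The genes with the largest differences under drought were nearly silent in DREM. TraesCS1A02G186600 had 1.42, 2.75 and 6.61 normalized counts in DREM drought, against 99.4, 71.7 and 93.7 in UBQ drought, a log2 difference of -4.43 ± 0.35 (SE; limma adjusted p = 5.3e-10). DEH2 drought had 81.3, 74.2 and 117, which put DREM lower by -4.46 ± 0.35 (adjusted p = 4.5e-10). The DREM libraries lay below all libraries of the other groups. With water the gene had 277, 271 and 259 in DREM, so its level there was not low. TraesCS7A02G083700 behaved likewise, with 2.15, 0 and 0.952 in DREM drought, against 37.0, 30.3 and 13.2 in UBQ drought and 17.2, 16.7 and 22.8 in DEH2 drought. In WT well-watered this gene had 2.91, 3.03 and 4.29, under 3 reads in every library. The size of its WT change of 1.61 therefore depends on the pseudocount. TraesCS5D02G343200 was at 0 in all 3 DREM drought libraries and had 17.7, 11.1 and 7.77 in UBQ drought and 64.1, 62.3 and 55.1 in DREM well-watered. Together with TraesCS7D02G523900 and TraesCS7B02G396200 it was under 3 reads in every library of DREM drought. TraesCS7B02G396200 was also under 3 reads in every library of UBQ drought and DEH2 drought, so this was not particular to DREM. DREM drought was also the group in which the start of 1B was almost silent. None of these genes is on 1B, and whether what sets that group apart also bears on them was not tested.

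In other comparisons DEH2 was the lower line. TraesCS4D02G122600 had 236, 126 and 162 normalized counts in DEH2 drought, against 832, 773 and 803 in UBQ drought, lower by -2.24 ± 0.16 (SE; limma adjusted p = 5.26e-10). DREM drought was lower still, with 97.9, 89.1 and 74.4. TraesCS5B02G224100 was also lower in DEH2 than in UBQ under drought, by -2.18 ± 0.38 (SE), with 6.49, 2.05 and 5.09 against 21.6, 29.6 and 17.7. TraesCS3A02G347800 had 97.8, 122 and 111 in DREM drought, against 43.5, 18.4 and 25.6 in DEH2 drought, higher by 1.96 ± 0.20 (adjusted p = 6.85e-09).

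TraesCSU02G113900 and TraesCS6B02G117300 were lowest in UBQ. TraesCSU02G113900 had 88.3, 87.2 and 144 in DREM drought and 126, 127 and 92.2 in DEH2 drought, against 33.9, 25.6 and 21.2 in UBQ drought. The differences from UBQ were 1.93 ± 0.16 for DREM and 2.07 ± 0.16 for DEH2 (SE; limma adjusted p = 1.91e-11 and 4.64e-12). TraesCS6B02G117300 had 188, 137 and 106 in DEH2 drought, against 34.5, 32.9 and 33.4 in UBQ drought, higher by 2.02 ± 0.24 (adjusted p = 1.16e-06). This gene lies on 6B beyond the silent region of UBQ drought, and in UBQ well-watered it had 593, 605 and 604. Whether what sets UBQ drought apart on 6B also bears on this gene was not tested. TraesCS6D02G344700 had 23.8, 24.7 and 16.9 in DREM drought, against 1.53, 7.33 and 6.29 in UBQ drought and 11.6, 5.11 and 9.37 in DEH2 drought.

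In well-watered leaves fewer of the 35 genes differed between the lines, and so did fewer of all tested genes. DREM against UBQ, DEH2 against UBQ and DREM against DEH2 called 21706, 17122 and 10627 of all genes with water. Under drought they called 25734, 24159 and 25604. Of the 35 genes, DREM was lower than UBQ for 12 (18.3% of all genes) and higher for 2 (17.8%). DEH2 was lower than UBQ for 5 (14.5%) and higher for 1 (14.0%). DREM was lower than DEH2 for 7 (9.08%) and higher for 2 (8.61%). No such comparison called 17 of the 35 genes, and all 3 comparisons called 2, again without the matching shares of all genes. When only the compared groups were in the model, more of the 35 genes were called, at 24, 14 and 18 in the 3 comparisons. The shares of all genes called by those models are not given here. Whether the 35 genes or all genes gained calls therefore cannot be said.

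TraesCS2D02G033800 had 11.2, 29.3 and 47.3 normalized counts in DREM well-watered, against 135, 125 and 108 in UBQ well-watered, lower by -2.24 ± 0.37 (SE; limma adjusted p = 1.57e-05). It was also lower than in DEH2 well-watered, which had 107, 90.5 and 92.9. TraesCS4A02G103700 went the other way, with 199, 177 and 154 in DREM well-watered, against 26.9, 46.7 and 58.9 in DEH2 well-watered, higher by 2.04 ± 0.28 (adjusted p = 1.87e-06). DEH2 was below UBQ for this gene, by -1.58 ± 0.28 (adjusted p = 5.25e-05). TraesCS1A02G300100 was highest in UBQ, with 75.7, 73.4 and 43.7, against 15.7, 17.9 and 12.5 in DREM and 15.0, 21.6 and 13.4 in DEH2.

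TraesCS5A02G513200 had 5069, 5012 and 5546 in DREM well-watered and 3938, 3881 and 3998 in DEH2 well-watered, against 2075, 2073 and 2387 in UBQ well-watered. The differences from UBQ were 1.26 ± 0.22 for DREM and 0.86 ± 0.22 for DEH2 (SE; limma adjusted p = 0.000173 and 0.00633). TraesCS5D02G343200 was higher in DREM than in DEH2 by 1.504 ± 0.45 (adjusted p = 0.0166), and TraesCS6D02G344700 was higher in DREM than in UBQ by 1.05 ± 0.36 (adjusted p = 0.0207). The first of these lost its call without any 1 of 4 libraries, DREM replicates 1 and 2 and DEH2 replicates 1 and 2, and the second without UBQ replicate 3 or DREM replicate 1 or 3.

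The drought effect itself was compared between the lines by the interaction term of the same model. It differed between DREM and UBQ for 15 of the 35 genes (38.5% of all genes), between DEH2 and UBQ for 15 (33.5%) and between DREM and DEH2 for 13 (35.7%). As shares of the 35 genes these are 42.9%, 42.9% and 37.1%, close to the shares of all genes. TraesCS7B02G019600 fell less in DREM than in UBQ, by 1.79 ± 0.12 (SE; limma adjusted p = 2.07e-11), and TraesCSU02G113900 by 2.39 ± 0.23 (adjusted p = 4.68e-10). TraesCS5A02G513200 fell more in DREM than in UBQ, by -2.06 ± 0.31 (adjusted p = 3.52e-05), with 315, 333 and 372 in DREM drought and 601, 591 and 589 in UBQ drought. For this gene DREM was the higher line with water and the lower line under drought.

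By position, the 35 genes were spread over 20 of the 21 chromosomes, with none on 3B and at most 3 on any chromosome, and 2 had no assigned chromosome. Subgenome D held 15 of them (42.9%), against 34.5% of the tested genes outside the left-out regions, B held 10 (28.6%, against 33.2%) and A held 8 (22.9%, against 30.9%). These shares are a description over few genes. The closest members were TraesCS6B02G117300 and TraesCS6B02G117700, with 2 tested genes between them. The first was higher in all 3 WT drought libraries, with 532, 406 and 466, and the second in replicate 1 only. TraesCS3D02G340100 and TraesCS3D02G341400 had 10 tested genes between them, and TraesCS1B02G130000 and TraesCS1B02G135200 had 32. Up to 5 tested genes on either side of each member were set beside it. Of 326 such neighbours, counted once for each member they flank, 3 had changes past the thresholds of the rule in WT and all 3 lines, and 2 of these are the 6B members themselves. The median change of the neighbours, taken per member and then over 33 members with a chromosome, was 0.09 in UBQ, -0.14 in DREM, -0.13 in DEH2 and 0.24 in WT. Single members stood far from these medians. The neighbours of TraesCS5D02G054400 had median changes of -3.22 in UBQ, -2.22 in DREM, -2.75 in DEH2 and -0.52 in WT, and it was the 1 member whose neighbours had a median of -1 or lower in each line. Those of TraesCS1A02G300100 had -1.35 in UBQ, -0.99 in DREM, -1.17 in DEH2 and -0.05 in WT.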

How the data were processed

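Each value is a normalized count, the scaled signal of 1 gene in 1 of 24 leaf libraries, as deposited by the authors. The tools listed in the submitters' processing notes are CASAVA, Trimmomatic, STAR, Salmon and DESeq2, all without a version. Genome build and annotation: not given in the sources used here. Values were scaled between libraries but not to a common sum, and they are not whole, so no count model was fitted. Depth was estimated from the value of 1 read in genes seen in 1 library (93.0% to 99.45% whole multiples within 0.01). Reads of A, B and D copies may be divided between copies by the quantification, which leaves the value of any single copy uncertain.

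Values were taken as log2(value + 1). Genes at 10 or more in at least 3 libraries were fitted in 1 limma 3.58.1 model of 8 groups (R 4.3.3), using limma's trend and robust options. Tests were two-sided, with Benjamini-Hochberg adjustment over 60088 genes within each of 19 comparisons. Fold changes on this scale understate the change of low genes. The fit was first tested on simulated data with known changes, where the share of false calls was somewhat above the nominal threshold in most of the comparisons simulated, so calls close to it are less certain than their adjusted p says. Changes used by the selection rule come from group means. Per the labels all libraries carry the same batch number. The series' design text names 27 samples and other groups, so groups were taken from the sample labels.

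Named genes were the 2 with the largest WT change minus highest line change, the 2 with the largest normalized count in WT drought (not corrected for gene length, so not a ranking of transcripts), and for each pair of lines in each regime up to 2 higher and 2 lower genes with the largest difference among those called whose groups did not overlap. Others are said to be chosen after their values were seen or stand closest to a threshold. The genes and lists were chosen with earlier results of these data known. Lists of product classes and of tissue markers had 0 matched genes and gave no result.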

Additional observations from a re-analysis of the deposited data

Results flagged for a closer look

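The drought effect differed between TOR lines for part of the 35 genes, by the interaction term of the limma model (adjusted p under 0.05). DREM and UBQ differed for 15 of them (38.5% of all genes), DEH2 and UBQ for 15 (33.5%), and DREM and DEH2 for 13 (35.7%). The shares of the 35 genes were 42.9%, 42.9% and 37.1%, close to those of all genes. Over the 25 genes that do not depend on WT drought replicate 1 the counts were 14, 12 and 12. TraesCS1A02G186600 had a stronger fall in DREM, by -4.75 ± 0.49 (SE) log2 units relative to UBQ and -4.57 ± 0.49 relative to DEH2 (adjusted p = 6.05e-08 and 1.2e-07), and all 3 DREM drought libraries were below every UBQ and DEH2 library. TraesCS1A02G300100 fell less in DREM and in DEH2 than in UBQ, by 2.73 ± 0.63 and 3.75 ± 0.63 (adjusted p = 0.000733 and 1.47e-05). Its UBQ drought libraries were all under 3 reads, so these sizes depend on the pseudocount. TraesCS4D02G122600 fell more in DEH2 than in UBQ, by -1.80 ± 0.23 (adjusted p = 2.51e-06), and TraesCS3A02G347800 fell less in DREM than in DEH2, by 2.47 ± 0.28 (adjusted p = 7.75e-08).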

How the results depend on the processing

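The number of genes chosen depended on the rule and on 1 library. It was 225 with thresholds of 0.5 and -0.5, 9 with 1.5 and -1.5, 76 with UBQ left out of the rule and 108 with DREM left out. Leaving out 1 library gave 28 to 41, and without WT drought replicate 1 it was 28, of which 25 were among the 35. With libraries scaled to the same sum, which moved the median drought change of all tested genes to 0.58 in UBQ, 0.52 in DREM, 0.42 in DEH2 and 0.16 in WT, it was 29, of which 20 were among the 35. Models of only the compared well-watered groups called 24 genes for DREM against UBQ, 14 for DEH2 against UBQ and 18 for DREM against DEH2. The model of all groups called 14, 6 and 9. The shares of all genes called by the smaller models are not given here. Leaving out 1 library, the DREM against UBQ count ran from 8 (without DREM well-watered replicate 3) to 16, with 9 without UBQ well-watered replicate 1. The cause was not tested. Of 627 counts of called genes under alternatives 622 were within 1.5 times. Of 734 values of named genes 727 kept direction and call, 7 lost the call and 0 reversed. Over all tested genes, libraries with the same replicate number mostly did not deviate together (median r = 0.001, from -0.057 to 0.124 over 84 pairs). Pairs with different numbers had a median r of -0.001, from -0.087 to 0.067. A correlation over all genes does not show a deviation confined to few genes. Of the 224 genes that set WT drought replicate 1 apart, 128 were also high in DEH2 well-watered replicate 1. A replicate block gave 19 genes for DREM against UBQ under drought, as without it. Restriction to the 25 genes that the rule keeps without WT drought replicate 1 was added after the data were seen. Low genes near 3 reads limit what can be said of their size of change.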
